A study of Mus musculus with 28 samples.

Results

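C1qb, P2ry12, Itgam and Laptm5 are genes that microglia, the resident macrophages of the brain, are known to express. They were chosen here to describe microglial transcripts in the midbrain of mice given tumour cells under the skin, by the gene symbols of the array annotation. The 4 genes are among 8726 named genes on the arrays, and each was represented by 1 probe, listed under NM_009777 for C1qb, AK013804 for P2ry12, NM_008401 for Itgam and NM_010686 for Laptm5. Male BALB/c mice of 8 weeks received CT-26.WT, a colon carcinoma line of the mouse, as 1000000 cells in 300 µl of PBS under the skin, or the PBS alone. The midbrain was taken 18, 72 or 192 h later. Midbrain RNA of mice given the cells and of PBS mice was labelled in Cy3 and Cy5 and hybridised to 1 in-house printed oligonucleotide array. A spot therefore measures tumour over PBS. Each comparison sets the mice given the cells, called tumour-bearing here, against PBS mice of the same time. The arrays described here are the 21 of 28 that are numbered 309 and above. They hold 11 of the 13 biological replicates: 18 h has 5 of these, 72 h has 2 and 192 h has 4. Nothing in the labels says whether a replicate was 1 animal or a pool. Replicates 1 and 2 at 18 and 192 h were polyA RNA in 1 dye orientation each, and the other 7 replicates were total RNA with both orientations.

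Microglia survey the brain with moving processes and take up debris, dying cells and synapses. In the healthy brain they hold a resting programme of surface receptors, in which the purine receptor P2ry12 is a defining gene, and during inflammation they are known to lower that programme and raise complement, integrin and lysosomal genes. C1q, which contains the C1qb chain, is the recognition molecule of the classical complement pathway and can tag synapses for removal. The integrin chain Itgam pairs with Itgb2 to form complement receptor 3, which binds the complement fragment iC3b on tagged targets. Laptm5 encodes a lysosomal membrane protein of blood-forming lineages.

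The promoters of the 4 genes are shown because a shared myeloid factor, PU.1, is known to bind the PU box GAGGAA in many genes of this lineage. The arrays carry no measurement at these sequences. Each line gives the 100 bases before the gene's start in the RefSeq annotation of GRCm38.p6, and capitals mark GAGGAA on either strand, so TTCCTC is the same motif on the other strand.
C1qb, chr4:136886201-136886300, minus strand: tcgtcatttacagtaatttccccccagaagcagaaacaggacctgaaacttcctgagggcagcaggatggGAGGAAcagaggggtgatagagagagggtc
P2ry12, chr3:59262986-59263085, minus strand: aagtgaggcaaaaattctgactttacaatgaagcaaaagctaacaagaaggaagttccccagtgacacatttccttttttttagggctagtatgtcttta
Itgam, chr7:128062540-128062639, plus strand: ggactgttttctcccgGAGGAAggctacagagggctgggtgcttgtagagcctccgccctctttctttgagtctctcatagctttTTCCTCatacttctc
Laptm5, chr4:130913216-130913315, plus strand: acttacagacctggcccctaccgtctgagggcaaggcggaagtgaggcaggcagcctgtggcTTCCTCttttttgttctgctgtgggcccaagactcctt
In the full RefSeq windows, 250 bases before to 50 after the start, the motif was present in 3 of the 4 genes: 1 time in C1qb and Laptm5 and 3 times in Itgam. The same letters lie in 28.3% of all 32851 windows of that length. The P2ry12 window does not hold these letters.

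Across the arrays a median of 69.0% of spots gave a signal above background in both channels. After the sign of every array was turned to tumour over PBS, the 7 dye-swapped pairs of arrays from 1 replicate correlated across probes at a mean r of -0.35. The sign of a ratio on a single array thus often went with the labelled dye. Whether each label names the right dye was not tested. The tumour-in-Cy3 array of replicate 3 at 72 h, numbered 447, stood apart: its channels correlated at a Spearman rho of 0.0447, against 0.658 to 0.983 on the other 20 arrays, and fitted values at 72 h are therefore given with and without it. The tissue was checked through marker lists by their median brightness percentile in the PBS channels. A percentile ranks a probe's signal among the named probes that had a signal in that channel. Arrays on which a probe had no signal there do not enter its value. A percentile does not compare RNA amounts between genes. Neuronal markers lay at 76.3 (10 of 12 genes on the arrays, Snap25 the brightest), oligodendrocyte markers at 78.6 (7 of 13, Pllp the brightest) and astrocyte markers at 63.2 (4 of 10, S100b the brightest). Dopaminergic neuron markers lay at 42.7 (8 of 12, Pitx3 the brightest) and endothelial markers at 42.1 (4 of 12, Eng the brightest). Microglial markers lay at 36.1 (7 of 15, P2ry12 the brightest), the 7 probes ranging from 27.7 to 60.7. Monocyte and granulocyte markers lay at 35.8 (9 of 15, Ly6c1 the brightest). Lymphocyte markers lay at 32.4 (10 of 16, Cd79a the brightest) and perivascular macrophage markers at 28.4 (6 of 8, Cd163 the brightest), while none of 10 red blood cell markers was on the arrays.

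None of the 4 microglial genes differed between tumour-bearing and PBS mice beyond the spread between replicates at any time. C1qb, P2ry12 and Itgam gave fitted log2 ratios between -0.17 and 0.12, where 0 is no difference, and the dimmer Laptm5 between -0.39 and -0.14. Limma called 0% of 4488 probes at 18, 72 or 192 h at a Benjamini-Hochberg adjusted p under 0.05, so the lack of a call among the members is shared by every probe tested. At an unadjusted p under 0.05 it counted 5.37% of probes at 18 h, 8.82% at 72 h and 1.00% at 192 h, and 0 of the 9 values of the 3 members it tested. In whole midbrain tissue, a change in the number of microglia cannot be told apart from a change in RNA per cell.

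C1qb had a signal in both channels on 16 of the 21 arrays. At 18 h its log2 ratio was -0.03 in replicate 2, -0.11 in replicate 3, -0.06 in replicate 4 and 0.20 in replicate 5. Replicate 5 lay above 0 and the other 3 just below it, while replicate 1 gave no ratio. The fitted log2 ratio at 18 h was 0.01 (SE 0.10, n = 4), with a 95% interval from 0.857-fold to 1.18-fold, and without replicate 5 it was -0.07. At 72 h the ratio was -0.13 in replicate 3 and -0.21 in replicate 4, both below 0. That gave a fitted log2 ratio of -0.17 (SE 0.14, n = 2, limma adjusted p = 0.734). Replicate 3 was the mean of 0.29 with the tumour in Cy5 and -0.55 on the array numbered 447, and without that array the fitted value at 72 h was -0.04. At 192 h the ratios were 0.08, 0.05 and -0.00 in replicates 1, 3 and 4, a narrow range that met 0. Replicate 4 joined 0.26 with the tumour in Cy5 and -0.26 with it in Cy3. Replicate 2 gave no ratio, since the probe had no PBS signal on its arrays. The fitted value at 192 h was 0.03 (SE 0.12, n = 3), with an interval from 0.843-fold to 1.23-fold. Without the array numbered 447 it was -0.01, since 72 h replicate 3 then holds 1 orientation and enters the dye term. The SD of the 3 replicate values of C1qb at 192 h, 0.04, was the lowest of the 4 genes at that time. It does not hold the spread between arrays of 1 replicate.

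P2ry12, the Gi-coupled ADP receptor that guides microglial processes towards injury, had the brightest probe of the 4 genes and gave a ratio on 19 of the 21 arrays. At 18 h the log2 ratio was -0.02, -0.27, 0.74, -0.28 and -0.05 in replicates 1 to 5. Replicate 3 stood well above 0 and the other 4 lay below it. Its value came from a single array with the tumour in Cy5, since the swapped array had no Cy5 signal for this probe. The fitted log2 ratio at 18 h was 0.02 (SE 0.13, n = 5), with a 95% interval from 0.832-fold to 1.24-fold, and without replicate 3 it was -0.16. At 72 h the ratios were -0.21 and -0.01 in replicates 3 and 4, neither above 0. The fitted value was -0.11 (SE 0.21, n = 2, limma adjusted p = 0.922), and -0.03 without the array numbered 447. At 192 h the ratios were 0.09, 0.02, 0.22 and -0.01 in replicates 1 to 4. Of these, 3 were above 0, all by less than the SD of 0.42 seen at 18 h. The fitted value at 192 h was 0.08 (SE 0.15, n = 4), with an interval from 0.846-fold to 1.32-fold.

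Itgam gave a ratio on 17 of the 21 arrays. It had a PBS signal on all 21, so each missing ratio lacked the tumour signal. At 18 h its log2 ratio was 0.00 in replicate 2, 0.13 in replicate 3, 0.01 in replicate 4 and 0.20 in replicate 5. The value of replicate 3 came from 1 array with the tumour in Cy3. Replicate 4 joined 0.30 with the tumour in Cy5 and -0.28 with it in Cy3, and replicate 5 joined -0.15 and 0.54. None of the 4 replicate values lay below 0. The 18 h arrays numbered 349, 397 and 515 had no tumour signal for this probe and do not enter these values. Replicate 1, with only the array numbered 349, gave no ratio. The fitted log2 ratio was 0.12 (SE 0.09, n = 4, limma adjusted p = 0.938), with a 95% interval from 0.944-fold to 1.25-fold. At 72 h the ratios were 0.05 in replicate 3 and 0.19 in replicate 4, again above 0. The fitted value was 0.12 (SE 0.12, n = 2, limma adjusted p = 0.817), and 0.07 without the array numbered 447. This probe had no Cy3 signal on that array, so replicate 3 kept its value and only the dye term changed. With a dye term taken from the arrays with a value, the fitted value at 72 h was 0.08. The 72 h value of replicate 4 joined 0.71 with the tumour in Cy5 and -0.33 with it in Cy3, so the arrays lay further apart than the mean lay from 0. At 192 h the ratios were 0.05, -0.25, -0.00 and -0.14 in replicates 1 to 4. Only replicate 1 was above 0, and the fitted value was -0.09 (SE 0.09, n = 4), with an interval from 0.824-fold to 1.08-fold.

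Laptm5 had the dimmest probe, at a mean brightness percentile of 24.1, under the limit of 32.1 below which probes were left out of the fit. Its values come from a fit over 5488 probes that kept the dim ones. It had both signals on 14 of the 21 arrays and in 26 of 63 scans, the fewest of the 4 genes. At 18 h the log2 ratio was -0.72, 0.05, -0.68, -0.45 and 0.42 in replicates 1 to 5. Of these 5 replicates 3 lay well below 0 and 2 above it, with an SD of 0.49. The fitted log2 ratio was -0.28 (SE 0.18, n = 5, limma adjusted p = 0.960), with a 95% interval from 0.623-fold to 1.10-fold. At 72 h the ratios were 0.11 and -0.88 in replicates 3 and 4, on opposite sides of 0. The fitted value was -0.39 (SE 0.29, n = 2, limma adjusted p = 0.728), and -0.43 without the array numbered 447. At 192 h they were -0.07, -0.41 and 0.05 in replicates 1 to 3, and replicate 4 gave no ratio. The fitted value was -0.14 (SE 0.24, n = 3), with an interval from 0.629-fold to 1.30-fold.

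**Figure D1:**
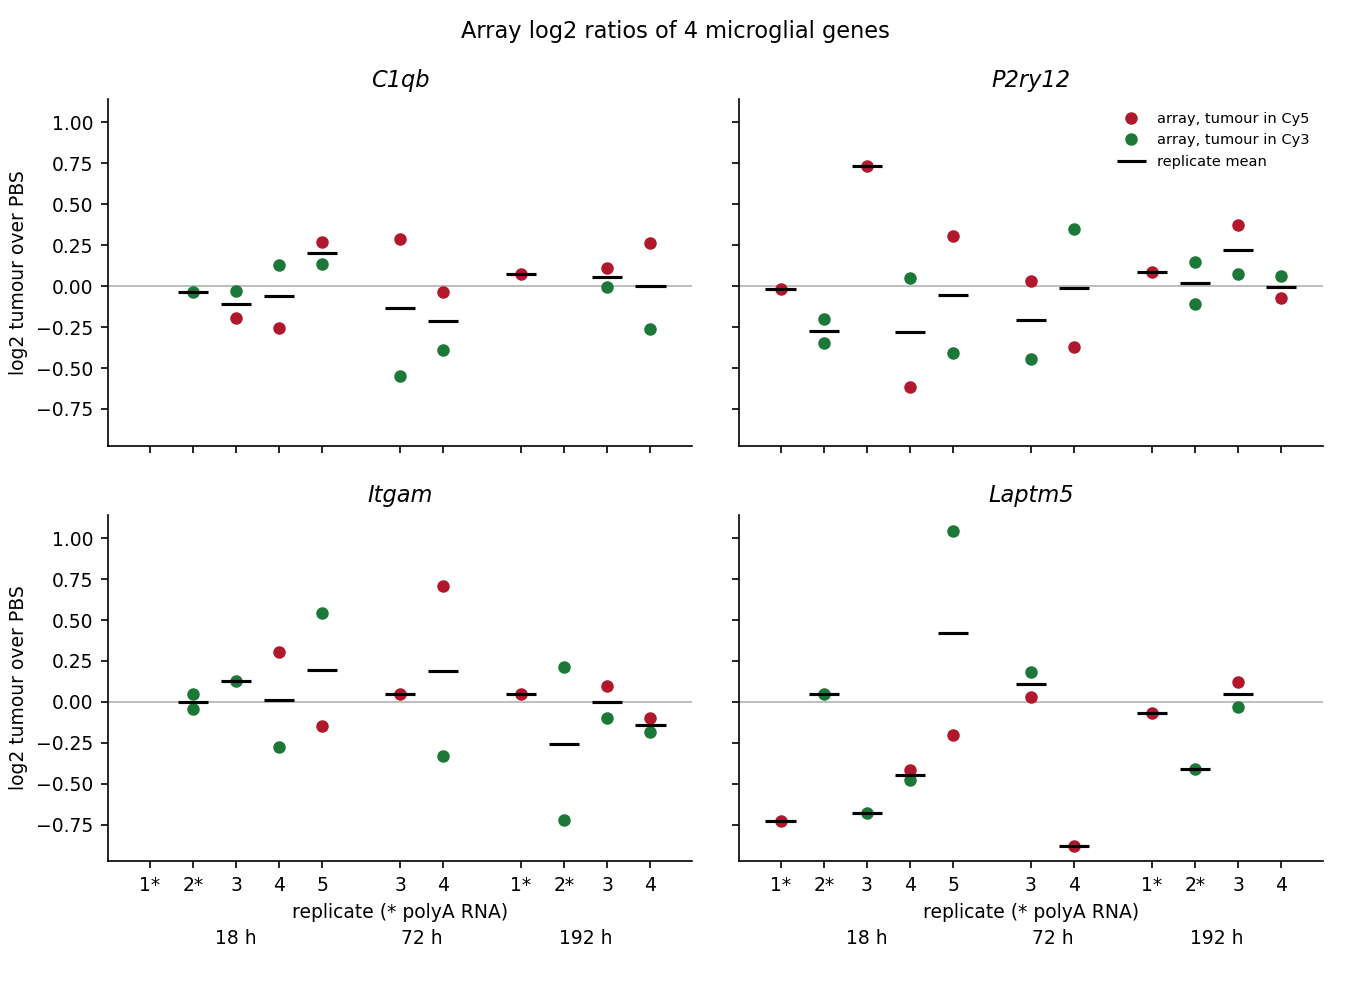
Log2 ratio of tumour over PBS (vertical axis) of each gene on each array, by biological replicate and time after injection (horizontal axis). Red points are arrays with the tumour sample in Cy5, green points arrays with it in Cy3, black bars replicate means and asterisks polyA RNA. P2ry12 in replicate 3 at 18 h, at 0.74, rests on 1 array, and the swapped arrays of 1 replicate often lie on opposite sides of 0.

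**Figure D2:**
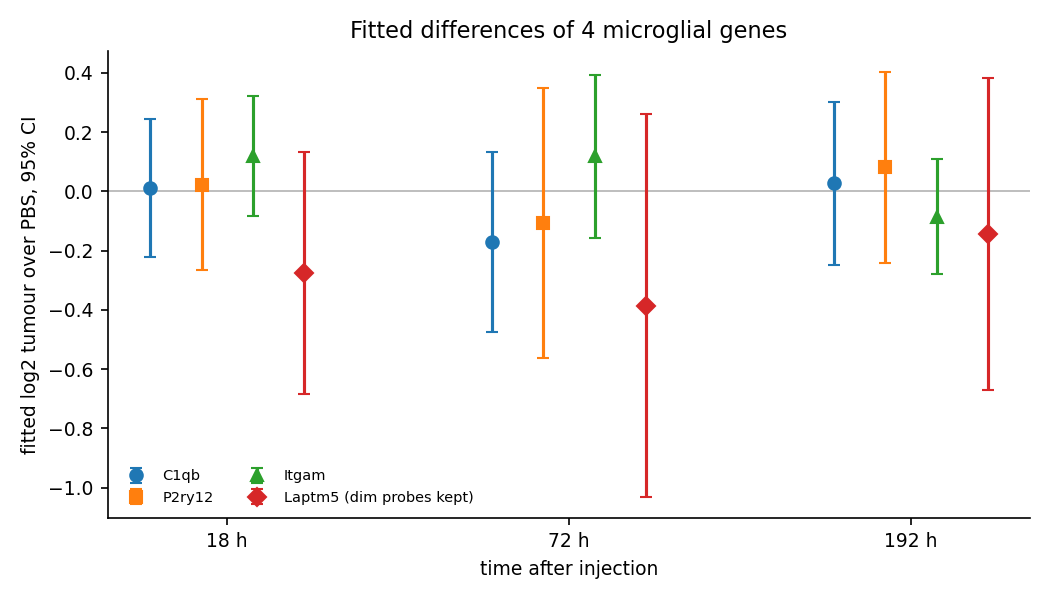
Fitted log2 ratio of tumour over PBS (vertical axis) with its 95% confidence interval, for the 4 genes at 18, 72 and 192 h (horizontal axis). Laptm5 comes from the fit that kept dim probes. All 12 intervals include 0.

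The values of polyA and total RNA replicates were also set apart, since the kind of RNA differed between replicates. All polyA arrays were of other printed array designs than the total RNA arrays. A difference by kind of RNA therefore cannot be told apart from one by array design. At 18 h P2ry12 had a mean log2 ratio of -0.14 in 2 polyA replicates and 0.13 in 3 total RNA replicates, the latter including the 0.74 of replicate 3. At 192 h it had 0.05 in 2 polyA replicates and 0.11 in 2 total RNA replicates. Itgam at 192 h had -0.10 and -0.07 in 2 replicates of each kind. Laptm5 at 18 h had -0.34 in 2 polyA and -0.23 in 3 total RNA replicates. For C1qb only 1 polyA replicate gave a ratio at each of these times, -0.03 at 18 h and 0.08 at 192 h, beside 0.01 and 0.03 in total RNA. All 72 h replicates were total RNA.

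The log2 ratios of the members were not shown to differ between the 3 times. Limma's F-test gave an adjusted p of 0.913 for C1qb, 0.960 for P2ry12 and 0.899 for Itgam, and of 0.972 for Laptm5 with dim probes kept. It called 0% of the 4488 probes, and 3.54% had an unadjusted p under 0.05.

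Within the replicates that held both dye orientations, the ratio with the tumour in Cy5 was compared with that in Cy3. The difference for C1qb was a mean of 0.20 on the log2 scale (SD 0.41, n = 7), above 0 in 5 replicates. An exact sign-flip permutation test gave a two-sided p of 0.266 for C1qb, adjusted to 0.833 over the 4 genes. P2ry12 had a mean difference of -0.01 (SD 0.60, n = 6), running from -0.72 to 0.72. Its exact p was 0.969, with an adjusted p of 0.969. Itgam had 0.24 (SD 0.64, n = 5), above 0 in 4 replicates, and Laptm5 had -0.30 (SD 0.65, n = 4), above 0 in 2. The exact permutation p was 0.438 for Itgam, and both genes had an adjusted p of 0.833. The smallest adjusted p that these 4 tests allow is 0.0625, so none could pass 0.05, and they show neither a difference nor its absence. Without the array numbered 447 the mean differences were 0.10 for C1qb, -0.10 for P2ry12 and -0.35 for Laptm5, while Itgam had no value on it. The spread of these dye differences was wider than any fitted tumour difference of the same gene. Over 4290 probes the median dye difference was 0.03, with quartiles at -0.20 and 0.21. Limma's dye term was called for 0.713% of the 4488 probes and for none of the 3 tested members. Its adjusted p was 0.929 (C1qb), 0.847 (P2ry12) and 0.607 (Itgam). Total RNA replicates entered this term with orientation 0, so only polyA replicates 1 and 2 held an orientation. A dye effect in this term cannot be told apart from a difference of those replicates. For C1qb only replicate 2 at 18 h and replicate 1 at 192 h of these gave a ratio.

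In the PBS channels, which hold midbrain RNA of mice without a tumour, the brightness percentile of each probe was followed over the 3 times. A PBS signal was present on 18 of the 21 arrays for C1qb, 20 for P2ry12, 21 for Itgam and 19 for Laptm5. Arrays without one were left out and not counted as dim. P2ry12 lay at 64.6, 62.8, 31.7, 40.9 and 42.0 in replicates 1 to 5 at 18 h. It lay at 79.7 and 73.4 in replicates 3 and 4 at 72 h, and at 90.0, 52.6, 66.0 and 64.1 in replicates 1 to 4 at 192 h. At 18 h replicate 4 joined 76.7 and 5.09 on its swapped arrays, and replicate 3 rests on 1 array. The tests below use replicate means and do not hold the spread between arrays of 1 replicate. The groups of 18 and 192 h overlapped, with 2 of the 192 h replicates below replicate 1 of 18 h, while both 72 h values lay above all 5 of the 18 h group. The mean percentile was 48.4 at 18 h and 68.2 at 192 h, a difference of 19.8 whose exact permutation p was 0.0873 (n = 5 and 4, two-sided), adjusted to 0.349 over the 4 genes. Within total RNA that difference was 26.9 and within polyA RNA 7.61. The 72 h mean was 76.6, and 75.5 without the array numbered 447.

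C1qb lay at a mean percentile of 27.0 at 18 h (0.0885 to 47.6, n = 5), of 56.0 at 72 h (42.3 and 69.6, with a mean of 54.3 without the array numbered 447) and of 46.5 at 192 h (20.3 to 60.8, n = 3). Replicate 2 at 192 h had no PBS signal for C1qb and was left out. The exact permutation p of C1qb between 18 and 192 h was 0.214, adjusted to 0.429. Total RNA replicates of C1qb lay between 24.0 and 69.6 and polyA replicates between 0.0885 and 32.6. These kinds of RNA also differed in array design. The 0.0885 came from 1 scan of the array numbered 349. The 32.6 joined 5.14 and 60.1 on the arrays numbered 369 and 397. Itgam had a mean of 34.3 at the first time (SD 5.46, n = 5) and 34.5 at the last (SD 4.48, n = 4), with an exact permutation p of 0.984. At 72 h Itgam lay at 81.1 in replicate 3 and 41.4 in replicate 4. The former held the array numbered 447, at 92.2, and without it the 72 h mean of 61.3 became 55.7. Laptm5 had a mean of 44.1 at 18 h (26.8 to 60.9, n = 5) and of 33.5 at 192 h (11.6 to 56.3, n = 4). Its 72 h replicates lay at 10.9 and 31.7, with a mean of 21.3, and of 25.7 without the array numbered 447. Its exact permutation p between 18 and 192 h was 0.397, adjusted to 0.529.

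**Figure D3:**
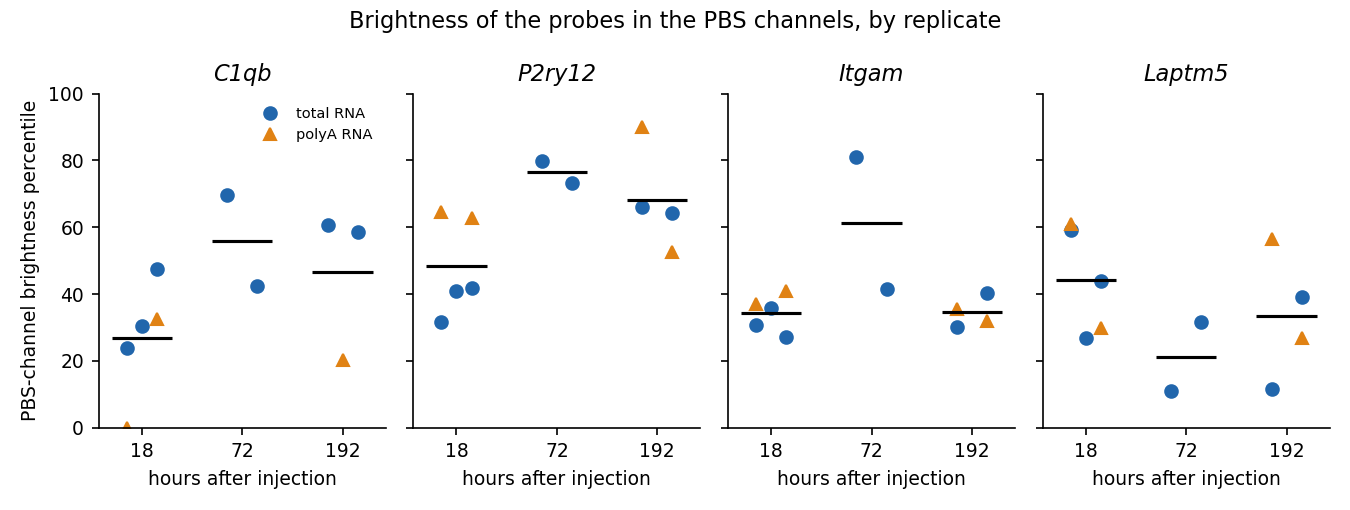
Brightness percentile of each probe among the named probes with a signal in the PBS channels (vertical axis, 0 dimmest and 100 brightest) at 18, 72 and 192 h after injection (horizontal axis). Points are biological replicates, circles for total RNA and triangles for polyA RNA, and bars are means over replicates. P2ry12 has means of 48.4, 76.6 and 68.2, with overlapping replicates at 18 and 192 h.

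No pair of the 4 genes passed a test of correlation over the replicates. Of 6 pairs, C1qb and Laptm5 had the highest correlation of log2 ratios, at a Pearson r of 0.77 over 8 replicates (exact permutation p = 0.0199, adjusted to 0.119 over the pairs). The Spearman rho of that pair was 0.55 (exact permutation p = 0.171, adjusted to 0.912). Without the 2 replicates farthest from the median of C1qb r was 0.37. Leaving out the ends of a range can lower r by itself, so this does not show whether the value rested on those 2. Within 6 total RNA replicates r was 0.80. The other 5 pairs lay between -0.31 (P2ry12 and Laptm5, n = 10) and 0.17 (P2ry12 and Itgam, n = 10), with adjusted permutation p-values of 0.949. Their Spearman rho lay between -0.28 and 0.18, with adjusted permutation p-values of 0.912. Without the 2 farthest replicates their r lay between -0.83 (Itgam and Laptm5) and -0.01. For each gene, the probes with the most similar ratios over its replicates were named by Pearson r as a description, from the 2325 to 3408 probes with a value in all of them. For C1qb these were Clcn7, a lysosomal chloride transporter (0.97, 9 replicates), Acox3 (0.88) and Fzd8 (0.88). Those of P2ry12 were Dpm1 (0.94, 11 replicates), Irs2 (0.93) and Ak4 (0.89). Itgam was closest to Hsd11b1 (0.93, 10 replicates), Castor2 (0.89) and Rab5if (0.87). Laptm5 was closest to Whrn (0.90, 10 replicates), the chemokine receptor Cxcr2 (0.90) and Rpl37a (0.89). No member was among the 3 probes closest to another.

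Further genes of microglia and of the members' pathways were described from lists. Of 45 microglial genes 25 were on the arrays and 7 passed the filters. None was called by limma at any time or had an unadjusted p under 0.05, and the median fitted log2 ratios of the 7 at 18, 72 and 192 h were 0.02, -0.00 and 0.03, beside -0.00, 0.04 and -0.00 over all 4488 probes. Over all 4488 probes 5.37%, 8.82% and 1.00% had an unadjusted limma p under 0.05 at these times. The 7 genes include the members C1qb, P2ry12 and Itgam. The list median at 18 h is the value of P2ry12, and that at 192 h the value of C1qb. Without the array numbered 447 the list median at 72 h was -0.02, and 0.01 over all probes then tested. The other C1q chains, C1qa and C1qc, and Aif1 were on the arrays but too dim for the fit, at brightness percentiles of 22.5, 17.7 and 27.9. Selplg, the P-selectin ligand of leukocytes and microglia, had the smallest unadjusted p of the list's genes other than the members at all 3 times. Its fitted log2 ratio was 0.23 at 18 h (SE 0.18, n = 3), above 0 in all 3 replicates. At 72 h it was -0.45 (SE 0.21, n = 2, limma adjusted p = 0.579), below 0 in both replicates, and at 192 h it was 0.25 (SE 0.15, n = 4), above 0 in 3. Without the array numbered 447 Selplg did not pass the filters. Of the other genes named by the rule, Ly86 had 0.14 at 18 h, Rgs10 0.15 at 72 h (0.05 without that array) and the lysosomal protease Lgmn -0.08 at 192 h.

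**Figure D4:**
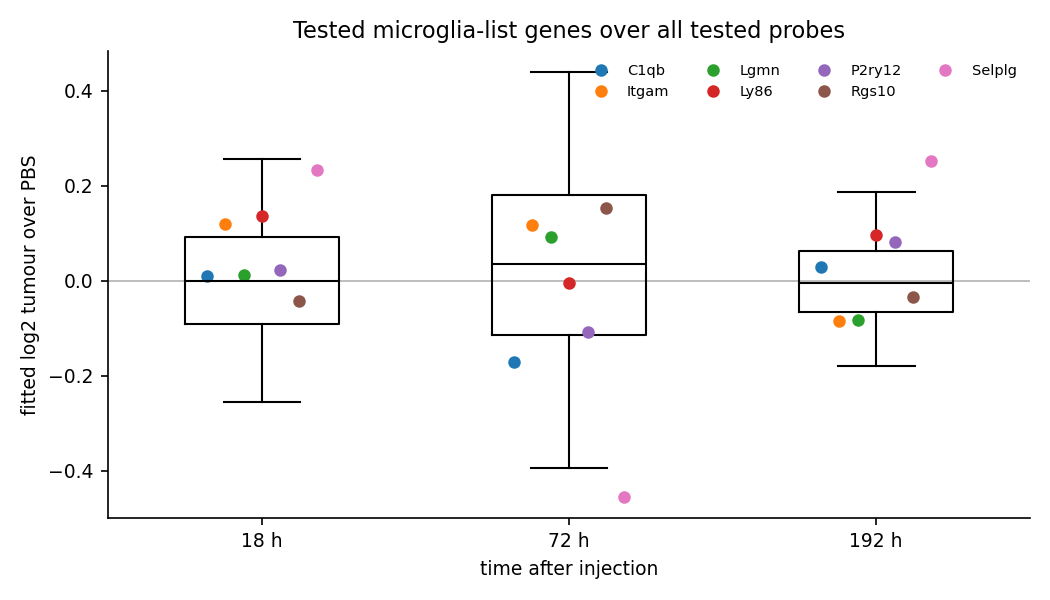
Fitted log2 ratio of tumour over PBS (vertical axis) of the 7 tested microglial genes at 18, 72 and 192 h (horizontal axis, points coloured by gene). The members C1qb, P2ry12 and Itgam are among the 7. Boxes show the quartiles and median of all 4488 tested probes, and whiskers their 5th and 95th percentiles. Of these genes 6 lie within the whiskers at every time, and Selplg lies below them at 72 h and above them at 192 h.

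Of 40 genes of activated microglia and phagocytes 20 were on the arrays and 7 were tested by limma, with 0 called and 0 at an unadjusted p under 0.05. Over all 4488 probes 0% were called, and 5.37%, 8.82% and 1.00% were under 0.05 at 18, 72 and 192 h. The list had medians of -0.03, 0.14 and -0.07 at these times. The 72 h median was -0.02 without the array numbered 447, -0.05 without 72 h replicate 3 and -0.08 without 72 h replicate 4. Its sign was thus not stable. Other probes pass the filters under these settings, so the medians can cover other genes, and the cause of the sign change was not tested. Cyba, a subunit of the phagocyte NADPH oxidase, had -0.20 (SE 0.11, n = 5) at 18 h and 0.18 at 72 h (0.04 without that array), and the lysozyme gene Lyz1 had 0.13 at 18 h. The inflammatory cytokine gene Il1b had -0.19 at 72 h (SE 0.14, n = 2; -0.08 without that array) and -0.17 at 192 h (SE 0.13, n = 3), and the scavenger receptor gene Msr1 had -0.12 at 192 h.

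Among 40 complement genes 19 were on the arrays and 8 were tested, C1qb with them. None was called by limma, and the medians were 0.01, -0.14 and 0.05, with -0.10 at 72 h without the array numbered 447. C3ar1, the receptor of the complement fragment C3a, had -0.45 at 192 h (SE 0.18, n = 3), below 0 in all 3 replicates. It was the only one of the 8 with an unadjusted p under 0.05 at any time, 0.0308, and its limma adjusted p was 0.9996. At 192 h 1.00% of all 4488 probes were under 0.05, and 5.37% at 18 h and 8.82% at 72 h. C8g, a chain of the membrane attack complex, had -0.24 at 18 h (SE 0.15, n = 3) and -0.30 at 72 h (SE 0.16, n = 2), below 0 in every replicate with a value, and -0.30 at 72 h without that array too. Properdin, encoded by Cfp, had -0.27 at 72 h, where it did not pass the filters without that array, and 0.20 at 192 h, and C1qbp had -0.12 at 18 h.

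The list of purinergic receptors and ectonucleotidases, which holds P2ry12, had 16 of 29 genes on the arrays and 9 tested by limma. Of these 0 were called and 0 had an unadjusted p under 0.05. Over all 4488 probes 0% were called, and 5.37%, 8.82% and 1.00% were under 0.05 at 18, 72 and 192 h. The list had medians of -0.04, 0.03 and 0.04, with -0.03 at 72 h without the array numbered 447. Entpd6, a nucleoside diphosphatase, had 0.36 at 18 h (SE 0.21, n = 5), with 1 replicate at 1.65, and the ATP release channel Panx1 had -0.26. The receptor P2ry14 had 0.38 at 72 h (SE 0.25, n = 2), from 0.05 to 0.71, and 0.0079 without that array. Gnai2, a G protein chain of the kind P2ry12 couples to, had -0.20 at 72 h (-0.18 without that array) and 0.15 at 192 h, and Gnai3 had 0.05 at 192 h. Of 20 beta 2 integrins, partners and ligands 8 were on the arrays, and Itgam was the only 1 tested.

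Of 42 lysosomal genes 16 were on the arrays, with 13 probes tested by limma, 0 called and medians of 0.01, 0.03 and -0.01, with -0.03 at 72 h without the array numbered 447. The lysosomal channel Mcoln1 had 0.39 at 72 h (SE 0.16, n = 2) and the protease Tpp1 had 0.34 (SE 0.14, n = 2), above 0 in both replicates. Their unadjusted p-values were 0.0317 and 0.0427, at a time when 8.82% of all probes were under 0.05, and their limma adjusted p-values were 0.548 and 0.557. Without that array they had 0.14 and 0.22, with unadjusted limma p-values of 0.315 and 0.206. At 192 h another probe of Mcoln1 had 0.14 (SE 0.15, n = 4). Scarb2 had 0.17 and Npc2 had -0.18 at 18 h.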

How the data were processed

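Per the file headers, the deposited scanner files hold background-subtracted spot intensity values of channels A and B, from 3 scans of each array used. Channel A was read here as Cy3 and channel B as Cy5, which those headers do not state. The sources used here do not name the scanning software. The authors' deposited series matrix holds log ratios of tumour over PBS, read as log2; their base and normalization are unknown, column medians lie between -0.0127 and 0.0123, and they correlated with the scanner ratios at 0.546 to 0.911, with signs that follow the labelled dyes. They served as an alternative only.

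The 7 arrays numbered below 309, 6 at 72 h and 1 at 192 h, were left out: the brightness of their named probes correlated with that of the arrays used at a Spearman rho of 0.0397 to 0.179, against 0.337 to 0.822 among the arrays used other than the one numbered 447. Loess normalization of log2 ratios was done scan by scan (span 0.3, 4 iterations; R 4.3.3, limma 3.58.1). Scans, spots of one accession and arrays of one replicate were averaged, arrays of opposite dye counting as 1 replicate. Probes in the dimmest 33.3%, or with values in under 3 replicates at 18 or 192 h or under 2 at 72 h, were not tested. Limma's method fitted 1 mean per time plus a dye effect, with Benjamini-Hochberg adjustment over 4488 probes. The dye effect used the orientations of all arrays of a replicate, also where a probe had no ratio on some of them. SE and intervals come from that fit, whose median SE was between 0.12 (18 h) and 0.18 (72 h); the number of arrays limits the precision. The p-values measure the spread between the labelled biological replicates. The fit was tested on simulated data.

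Alternatives covered the normalization, the background, the filter, scans, arrays, the dye term, the kind of RNA, the replicate block and each replicate left out. The members and gene lists were chosen with earlier results of these data known. Genes named beside the members follow a rule: for each list and time the 2 genes with the smallest unadjusted p, for each marker list the brightest gene, and for each member the 3 probes with the highest r. C1qa, C1qc and Aif1 fall outside it and were named after their values were seen. Gene names came from the platform annotation, updated through a reference table, and promoter sequences from RefSeq, which matched all 4 genes. Oligonucleotide sequences of the probes were not used here.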

Additional observations from a re-analysis of the deposited data

Results flagged for a closer look

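P2ry12 at 18 h is marked by replicate 3, whose log2 ratio of 0.74 lay far from the other 4 replicates, at -0.28 to -0.02, relative to the whole range of the group. It was the only one of 17 groups of 4 or 5 replicates to stand out so, where chance marks about 0.85. The value rests on 1 array with the tumour in Cy5, on which the probe had a signal in all 3 scans, and the cause was not tested.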

How the results depend on the processing

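Of 243 fitted log2 ratios of the members under the alternatives, 226 kept their direction, 17 changed sign and 0 passed the threshold (lowest adjusted p 0.589). Of 40 dye differences 8 changed sign, and of 12 brightness differences 1, with 0 past the threshold (lowest adjusted p of the latter 0.254). Laptm5 was refitted with dim probes kept, a choice made after seeing the data, and had values under 17 of 22 alternatives. Without background subtraction, C1qb at 192 h was -0.015 and P2ry12 -0.045. With the deposited matrix, C1qb at 18 h was -0.011, P2ry12 -0.023 at 18 h and 0.032 at 72 h. With the second scan alone C1qb at 18 h was -0.036, the dye differences were 0.031 (P2ry12) and 0.19 (Laptm5), and the brightness difference of Itgam was -7.67. With all 28 arrays C1qb was 0.083 at 72 h and -0.060 at 192 h, and P2ry12 0.0088 at 72 h. C1qb at 18 h was -0.0013 without the dye term, P2ry12 at 18 h was -0.021 with a dye term taken from the arrays with a value, and C1qb at 192 h was -0.011 without the array numbered 447. Median centring gave Laptm5 0.11 at 192 h and dye differences of 0.20 (P2ry12) and -0.076 (Itgam).

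Probes called at 72 h numbered 3 with median centring, 2 without background subtraction, 2 with the second scan, 1 with all arrays, 2 in total RNA alone and 1 with the kind of RNA as a block, against 0 as reported. The cause of these changes was not tested. Replicate numbers were not used to pair the samples, because not every same-numbered pair of different times correlated above 0.1: 5 of 8 did, from -0.12 to 0.33 in all. As a hint of pairing, 3 of 4 numbers correlated best with their own between 18 and 192 h. The replicate block gave -0.0085 for C1qb at 18 h and 3 probes called at 72 h; it changed no other call.

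Leaving out each replicate in turn gave C1qb -0.070 (without 18 h replicate 5) to 0.061 at 18 h, -0.21 to -0.13 at 72 h and 0.02 to 0.04 at 192 h. P2ry12 ran from -0.16 (without 18 h replicate 3) to 0.10 at 18 h, from -0.21 to -0.01 at 72 h and from 0.03 to 0.12 at 192 h. Itgam kept its sign, at 0.09 to 0.16, 0.05 to 0.19 and -0.11 to -0.07. Laptm5 was -0.45 to -0.15 at 18 h and -0.88 to 0.11 (without 72 h replicate 4) at 72 h. Dye differences ran from 0.097 to 0.30 for C1qb, from 0.042 (without 72 h replicate 4) to 0.48 (without 18 h replicate 5) for Itgam, from -0.15 to 0.14 for P2ry12 and from -0.45 to 0.019 (without 18 h replicate 5) for Laptm5. Probes called at 72 h numbered 0 to 292 and between times 0 to 136, both highest without 72 h replicate 4, which leaves replicate 3, with the array numbered 447, as the only one; a lone replicate is assumed to vary like the other groups. Without 18 h replicate 2, 192 h replicate 1 or 192 h replicate 4, 1 probe was called at 72 h. Itgam was not tested with the second scan or all arrays, nor C1qb without 192 h replicate 1, 3 or 4, nor Laptm5 with the second scan, total RNA alone or without 192 h replicate 1, 2 or 3, for want of replicates or brightness. Medians of the lists ran from -0.11 to 0.18 at 18 and 192 h and from -0.14 to 0.14 at 72 h. Missing signal on dim spots limits Laptm5 most.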
